A study of Homo sapiens with 4 samples.

Results

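The genes described here are the nuclear genes that encode subunits of respiratory complexes II, III, IV and V, taken from a list of 39 gene symbols. Of these 39, 37 had a row in the count table, which holds 18917 genes, and all 37 passed the filter on low counts. They were 4 genes of complex II, 9 of complex III, 11 of complex IV and 13 of complex V. ATP5J2 and ATP5O of complex V were not analysed here. RNA-seq counts were deposited for 4 libraries of HEK293 cells, an immortalized human embryonic kidney line that the paper names HEK-293T. There were 2 wild-type (WT) libraries and 2 libraries of THUMPD1 knockout (KO) cells, all grown in DMEM with fetal bovine serum and glutamine and with no further treatment in the labels. THUMPD1 is the RNA-binding partner that NAT10 needs to acetylate cytidine in serine and leucine tRNAs, so the comparison asks how RNA levels differ once that mark is lost. According to the methods, KO cells were made with Cas9 and guide RNAs and sorted as single cells, so the genotype and the history of a clone cannot be told apart.

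The respiratory chain of the inner mitochondrial membrane passes electrons from metabolites to oxygen and stores the energy as a proton gradient, which complex V uses to make ATP. Complex II (succinate dehydrogenase) is wholly encoded in the nucleus and links the chain to the citric acid cycle. Complexes III, IV and V also hold subunits encoded in mitochondrial DNA, so that their nuclear subunits must be matched to one another and to a second genome. Many of their promoters are known to bind NRF1, YY1 and the ETS factor GABP, whose DNA-binding subunit is GABPA.

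Promoters of 30 of the 37 genes were found in RefSeq's table (GRCh38.p14), each a window of 300 bases with 250 before the start of the transcript and 50 after it. The first window listed for each gene was searched on both strands for the NRF1 motif (GCGCA, any base, GCGC), the ETS motif CCGGAAG and the YY1 motif (AA, any base, ATGGC). A stretch that reads the same on both strands was counted once, and matches to different motifs were counted separately even where they could overlap. The sequences of 5 promoters are shown because they belong to genes called higher (ATP5C1, COX8A and ATP5L), called lower (ATP5I) and not called (ATP5J), and differ in the motifs they hold. Each is the 250 bases before the start that RefSeq gives, read 5′ to 3′ along the gene, with motif matches in capitals. RefSeq starts can differ from those of GENCODE 44, which gave the gene spans below. By those spans the ATP5L and ATP5J stretches lie within the gene, and the ATP5C1 and ATP5I stretches overlap its start. The ATP5C1 stretch (chr10:7787927-7788176, plus strand) holds 1 NRF1 match, the ATP5I stretch (chr4:674277-674526, minus strand) 2 NRF1 matches, the COX8A stretch (chr11:63974370-63974619, plus strand) 1 ETS match and the ATP5J stretch (chr21:25735055-25735304, minus strand) 1 match each to YY1 and ETS. The ATP5L stretch (chr11:118401356-118401605, plus strand) holds none of the 3 motifs. Its 1 ETS match lies in the 50 bases after the start, which are not shown. The full windows also hold 1 ETS match for ATP5I and 1 YY1 match for COX8A that do not lie within the stretches shown.
ATP5C1: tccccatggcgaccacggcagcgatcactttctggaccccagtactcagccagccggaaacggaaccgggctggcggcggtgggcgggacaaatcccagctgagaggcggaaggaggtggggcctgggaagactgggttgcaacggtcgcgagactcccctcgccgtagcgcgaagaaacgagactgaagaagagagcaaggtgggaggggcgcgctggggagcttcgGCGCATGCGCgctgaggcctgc
ATP5I: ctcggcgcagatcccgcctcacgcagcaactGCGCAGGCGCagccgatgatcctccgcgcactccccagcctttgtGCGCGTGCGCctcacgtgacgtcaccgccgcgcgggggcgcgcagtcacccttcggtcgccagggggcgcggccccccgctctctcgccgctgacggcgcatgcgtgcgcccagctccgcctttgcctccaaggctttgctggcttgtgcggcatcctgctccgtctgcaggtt
COX8A: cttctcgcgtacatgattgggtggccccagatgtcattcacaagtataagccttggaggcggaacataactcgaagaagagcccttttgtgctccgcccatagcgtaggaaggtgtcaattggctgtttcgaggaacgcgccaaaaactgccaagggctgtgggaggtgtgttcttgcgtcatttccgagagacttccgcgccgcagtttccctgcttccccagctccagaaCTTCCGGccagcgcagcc
ATP5J: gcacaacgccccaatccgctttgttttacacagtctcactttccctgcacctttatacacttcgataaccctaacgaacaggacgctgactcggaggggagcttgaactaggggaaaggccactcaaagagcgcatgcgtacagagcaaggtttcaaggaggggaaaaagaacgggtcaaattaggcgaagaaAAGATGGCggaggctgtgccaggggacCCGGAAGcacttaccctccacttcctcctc
ATP5L: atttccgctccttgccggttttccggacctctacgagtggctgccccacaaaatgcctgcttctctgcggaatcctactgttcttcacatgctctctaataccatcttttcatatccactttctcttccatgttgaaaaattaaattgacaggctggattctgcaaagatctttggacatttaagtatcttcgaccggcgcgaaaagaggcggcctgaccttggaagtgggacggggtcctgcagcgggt

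Over whole windows, the NRF1 motif was found in 8 of the 30 promoters (26.7%), against 11.3% of the 10587 tested genes with a window and 6.28% of windows of all 27305 genes of the table. The ETS motif was found in 14 (46.7%), against 18.7% and 10.7%. YY1 matches were found in 9 (30%), against 9.86% and 6.82%. At least 1 of the 3 motifs was present in 21 (70.0%), against 34.1% of tested genes. By complex, the NRF1 motif was in 2 of 3 promoters of complex II, 4 of 7 of complex III, none of 10 of complex IV and 2 of 10 of complex V. The ETS motif was in 40% to 66.7% of the promoters of each complex and the YY1 motif in 20% to 42.9%, and differences between complexes were not tested. Among genes that were higher in KO, 1 of 8 held the NRF1 motif, 3 of 8 the ETS motif and 2 of 8 the YY1 motif. Among those that were lower, 2 of 5 held NRF1, 2 of 5 ETS and 1 of 5 YY1. Among those not called, 5 of 17 held NRF1, 9 of 17 ETS and 6 of 17 YY1, and these differences were not tested. All 13 called genes had a window, so the genes without one were all among those not called. A match is only a run of letters, and binding was not measured.

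Library totals ran from 7875722 to 11362363 counts, at which 3 counts are worth 0.259 to 0.391 CPM (counts scaled by edgeR's TMM method to a common library size). The THUMPD1 gene had 356 and 468 counts in WT and 71 and 58 in KO, in the direction of the labels. Replicates differed by more than sampling noise, with a chi-square per degree of freedom of 4.14 in WT and 7.20 in KO, against 33.1 between a WT and a KO library. The labels do not say that the libraries came from separate cultures, so the p-values measure only the spread between these libraries, which may be technical. Of 6 embryonic kidney markers, all were detected and 1 passed the test, LHX1 with 6 and 6 counts in WT and 37 and 27 in KO, and their summed level was 159 to 171 CPM across the 4 libraries. The summed level of 8 markers of other cell types was 19.6 to 25.9 CPM, nearly all of it COL1A1, with HBB and HBA1 at 0. In bulk libraries fewer cells of a type and less RNA per cell cannot be told apart.

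Between WT and KO, the quasi-likelihood test of edgeR, with p-values adjusted by the Benjamini-Hochberg method, called 13 of the 37 genes at an adjusted p under 0.05, 8 higher in KO and 5 lower. Over all 13128 genes tested it called 20.9%, of which 8.79% were higher and 12.1% lower. Among the 8358 genes at or above the mean level of the least abundant of the respiratory genes it called 26.7%, a background added after the data were seen. The 37 log2 fold changes ran from -0.48 for ATP5G1 to 0.45 for ATP5L, with a median of 0.04 against 0.01 for all genes tested, and 20 were above 0 and 17 below. None of the 13 genes changed by as much as 1 on the log2 scale, and the absolute change ran from 0.18 to 0.48. CPM ranges of WT and KO did not overlap for 23 of the 37 genes, 13 with KO above and 10 with KO below, against 60.4% of all genes tested. The counts depended on single libraries. Without KO replicate 1 the test called 3 genes higher and 5 lower, and without WT replicate 2 it called 4 higher and 8 lower. Of all calls across genes, 42.0% were higher in KO, and with library size alone as the scaling 64.2% were, with 11 of the respiratory genes higher and 4 lower.

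**Figure D1:**
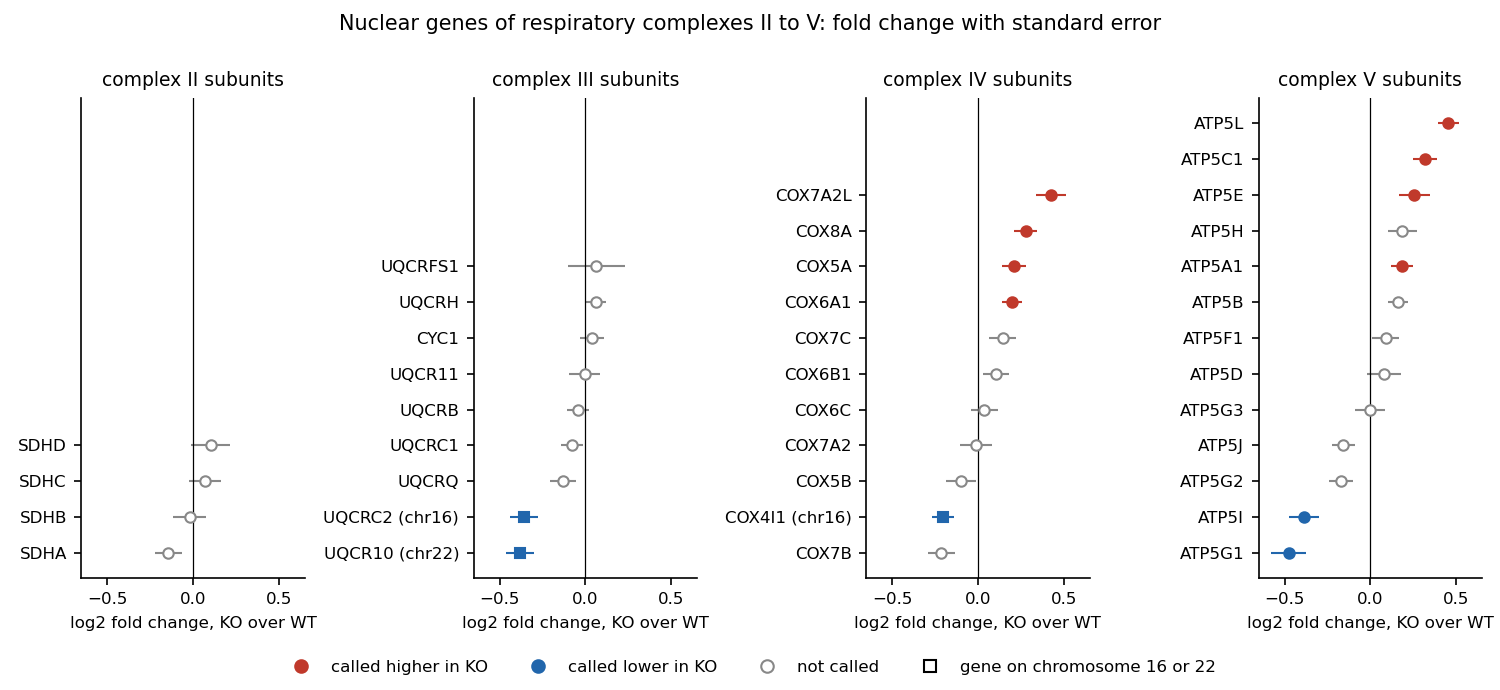
Points give the log2 fold change of each gene (x axis, KO over WT) with its standard error, in 1 panel per complex and in the order of the change; filled points passed an adjusted p of 0.05 and squares mark genes on chromosomes 16 and 22. Complex II holds no filled point, complex III only 2 filled squares on the lower side, and complexes IV and V hold filled points on both sides, up to 0.45 for ATP5L and down to -0.48 for ATP5G1.

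All 3 genes that lie on chromosomes 16 and 22 were among the 5 that fell, namely UQCRC2 and COX4I1 on chromosome 16 and UQCR10 on chromosome 22. Genes of these chromosomes were lower in KO as a whole, with a median log2 fold change of -0.44 over 573 genes of chromosome 16 and -0.42 over 311 genes of chromosome 22, while the medians of the 22 other chromosomes ran from -0.08 (chromosome Y, with 1 gene) to 0.10. The test called 54.0% of the genes on both chromosomes lower. Off them it called 9.33% of genes higher and 9.11% lower, and of the 34 respiratory genes there 8 higher and 2 lower, ATP5G1 and ATP5I, with a median of 0.06. What part the shift of the chromosomes had in the fall of these 3 genes was not tested. THUMPD1, the targeted gene, also lies on chromosome 16, and whether the shift is linked to the editing was not tested.

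In complex II, no gene passed the test and the WT and KO ranges of all 4 genes overlapped. SDHA, the flavoprotein that oxidizes succinate, had counts of 1381 and 1869 in WT and 1643 and 1865 in KO. Its level averaged 175 ± 7.09 CPM in the WT libraries and 158 ± 23.5 CPM in the KO libraries (SD, n = 2 libraries each), for a log2 fold change of -0.14 ± 0.08 (SE), the lowest of the complex. KO replicate 1 alone stood below the WT libraries, and without KO replicate 2 the change was -0.30 and passed edgeR's test with a Benjamini-Hochberg adjusted p of 0.0103. SDHD, a membrane anchor, had 332 and 442 counts in WT and 549 and 448 in KO, and its log2 fold change of 0.10 ± 0.11 was the highest of the complex. The iron-sulfur subunit SDHB stood at -0.02 and the other anchor, SDHC, at 0.07. The 4 genes together summed to 350 and 348 CPM in the WT libraries and to 324 and 353 CPM in the KO libraries.

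In complex III, which moves electrons from ubiquinol to cytochrome c, 2 of 9 genes were lower in KO and none was higher, with a median log2 fold change of -0.04, which became 0.04 with library size alone as the scaling. UQCRC2, a core protein of the matrix arm, had 858 and 1114 counts in WT and 953 and 891 in KO, in libraries of unequal depth. It averaged 107 ± 7.44 CPM over the WT libraries and 82.9 ± 0.95 CPM over the KO libraries, so that both KO libraries lay below both WT libraries. The log2 fold change was -0.36 ± 0.08 and the adjusted p 0.00238. The gene lies at chr16:21953288-21983660 on the plus strand of GRCh38. UQCRC1, the other core protein, lies on chromosome 3 and stood at -0.08 (adjusted p 0.433). The ratio of UQCRC1 to UQCRC2 counts was 2.02 and 2.25 in WT and 2.71 and 2.47 in KO.

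UQCR10, a small membrane subunit (chr22:29767369-29770413, plus strand), had 1090 and 1435 counts in WT and 1125 and 1193 in KO. Its level fell from 136 ± 8.18 to 104 ± 10.5 CPM, a log2 fold change of -0.38 ± 0.08 with an adjusted p of 0.00122 in edgeR's quasi-likelihood test. The redox subunits did not pass the test, with log2 fold changes of 0.04 for CYC1 (cytochrome c1) and 0.06 for UQCRFS1 (the Rieske iron-sulfur protein). UQCRFS1 had the fewest counts of all 37 genes, 156 and 197 in WT and 258 and 186 in KO, and its standard error of 0.17 was the widest. The hinge protein UQCRH, the most abundant of the 37 per length, had 3955 and 5463 counts in WT and 6086 and 5672 in KO and stood at 0.06 ± 0.06. UQCRHL, a near-identical copy of UQCRH at another place on chromosome 1, had 168 and 236 counts in WT and 138 and 156 in KO, a log2 fold change of -0.71 with an adjusted p of 0.00427. How the counting split reads between these copies is not stated, so both values are uncertain. UQCRB, UQCRQ and UQCR11 stood at -0.04, -0.13 and -0.0050.

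Complex IV, cytochrome c oxidase, had 4 of 11 genes higher in KO and 1 lower, with a median log2 fold change of 0.10. COX7A2L, related to a small subunit and known for joining complexes III and IV into supercomplexes, had 695 and 959 counts in WT and 1501 and 1158 in KO. Its level rose from 88.9 ± 2.38 to 119 ± 14.8 CPM, by 34.3% of the WT level, a log2 fold change of 0.43 ± 0.09 with an adjusted p of 0.000744. KO replicate 1 stood higher than KO replicate 2, and both lay above WT. COX8A, a small membrane subunit, had 1513 and 2390 counts in WT and 3031 and 2582 in KO. It rose by 0.28 ± 0.07 on the log2 scale (adjusted p 0.00389 in edgeR's test). Without KO replicate 1 its adjusted p was 0.0581.

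COX5A and COX6A1 rose by less. COX5A, which lies on the matrix side and contacts COX4I1, had 1200 and 1624 counts in WT and 2075 and 1834 in KO, for levels of 152 ± 6.16 and 176 ± 4.96 CPM. The log2 fold change was 0.21 ± 0.07 (edgeR, adjusted p 0.0299), and the adjusted p was 0.177 without WT replicate 2 and 0.190 without KO replicate 1. COX6A1, a membrane subunit with a muscle isoform in COX6A2, had 3048 and 4350 counts in WT and 5481 and 4651 in KO. It rose by 0.20 ± 0.06 (edgeR, adjusted p 0.0206), and the adjusted p was 0.0573 without WT replicate 2 and 0.249 without KO replicate 1. In all of these settings the direction was the same.

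COX4I1, the nuclear subunit known for binding ATP, had 2878 and 3903 counts in WT and 3515 and 3519 in KO. Its level fell from 365 ± 14.3 to 317 ± 18.9 CPM, a log2 fold change of -0.20 ± 0.06 with an adjusted p of 0.0223 in edgeR's test. The gene lies at chr16:85798633-85807068 on the plus strand. The adjusted p was 0.108 without WT replicate 1, 0.277 without KO replicate 1 and 0.164 with library size alone as the scaling. The ratio of COX5A to COX4I1 counts was 0.417 and 0.416 in WT and 0.590 and 0.521 in KO, so the partners changed unequally within each KO library. COX7B had the lowest log2 fold change of the complex, -0.21 ± 0.08, from 874 and 1137 counts in WT and 1106 and 976 in KO, with an adjusted p of 0.0600 that did not pass. Without WT replicate 2 it stood at -0.28 with an adjusted p of 0.0340. The other 5 genes (COX5B, COX6B1, COX6C, COX7A2 and COX7C) had log2 fold changes from -0.10 to 0.14 and did not pass.

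**Figure D2:**
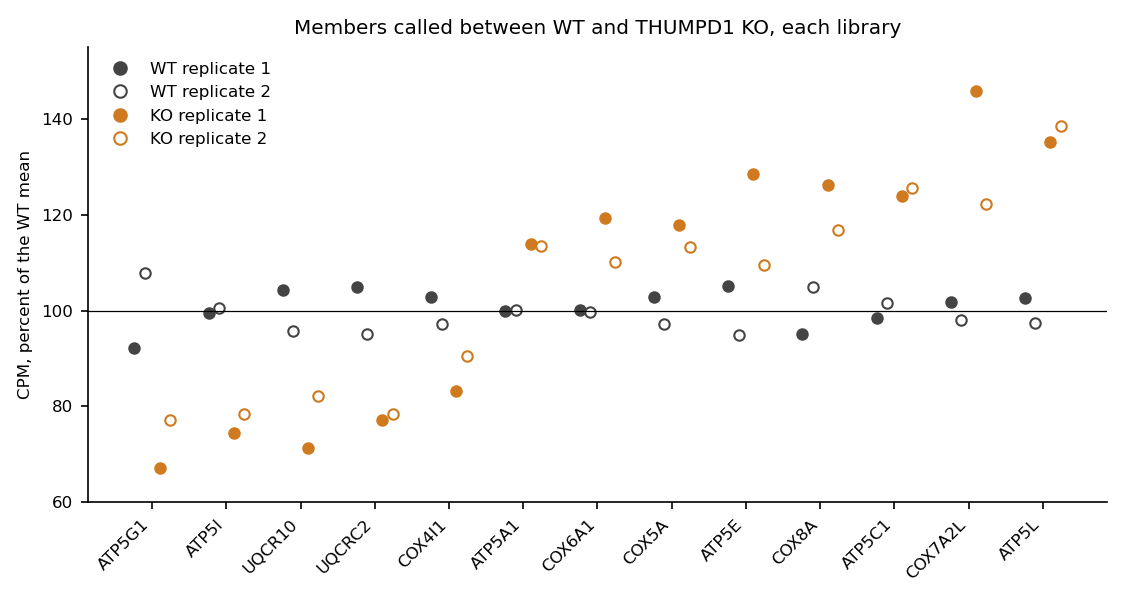
Each point is 1 library's CPM as a percent of the WT mean (y axis) for the 13 genes called, in the order of their log2 fold change; dark points are WT, orange points KO, filled points replicate 1 and open points replicate 2. In all 13 genes the KO points lie on one side of both WT points, but the genes were called from these same libraries. WT and KO ranges did not overlap in 60.4% of all genes tested. The KO points lie farthest apart from each other for COX7A2L.

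Complex V, the ATP synthase, had 4 of 13 genes higher in KO and 2 lower, with a median log2 fold change of 0.09. Its F1 part, which lies in the matrix and makes ATP, is encoded by ATP5A1, ATP5B, ATP5C1, ATP5D and ATP5E. These are subunits alpha, beta, gamma, delta and epsilon, of which alpha and beta form the head. All 5 genes had log2 fold changes above 0 and 3 passed the test. ATP5C1 had 1036 and 1531 counts in WT and 1968 and 1836 in KO and rose from 137 ± 2.97 to 171 ± 1.70 CPM, by 0.32 ± 0.07 on the log2 scale with an adjusted p of 0.00147 in edgeR's test. ATP5A1 had 1521 and 2183 counts in WT and 2615 and 2398 in KO, and rose from 198 ± 0.19 to 225 ± 0.50 CPM. Its change was 0.18 ± 0.06 with an adjusted p of 0.0388, and this call was lost when any of the 4 libraries was left out, with adjusted p-values from 0.0846 to 0.151 at changes of 0.18 to 0.19.

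ATP5E had 640 and 829 counts in WT and 1181 and 927 in KO, and rose by 0.26 ± 0.09 on the log2 scale (edgeR, adjusted p 0.0448). Without WT replicate 2 its adjusted p was 0.259 and without KO replicate 1 it was 0.483. ATP5B, the catalytic subunit, had 2848 and 4052 counts in WT and 4713 and 4470 in KO, both KO libraries above WT, but its change of 0.16 ± 0.06 had an adjusted p of 0.0567. ATP5B passed in 5 of 8 alternatives with every library (library size alone, upper quartile, limma-voom, 10 counts in every library and the replicate block), with adjusted p-values from 0.00275 to 0.0433 in these, and in none of the fits without 1 library. ATP5D stood at 0.08 with overlapping ranges, and at -0.08 without WT replicate 1. The 5 F1 genes summed to 857 and 870 CPM in the WT libraries and to 983 and 992 CPM in the KO libraries.

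The c-ring is the part of the rotor that protons turn. It is built from 1 protein encoded by 3 genes, ATP5G1, ATP5G2 and ATP5G3, whose mature products are identical. ATP5G1 (chr17:48892765-48895871, plus strand) had 550 and 921 counts in WT and 605 and 640 in KO. It fell from 77.7 ± 8.53 to 56.1 ± 5.53 CPM, a change of -28.1% of the WT level and a log2 fold change of -0.48 ± 0.10 with an adjusted p of 0.00119 in edgeR's test. ATP5G2, the most abundant of them per length, had 1919 and 2578 counts in WT and 2644 and 2147 in KO, with a log2 fold change of -0.17 ± 0.07 and an adjusted p of 0.0794. ATP5G2 passed without WT replicate 2, at -0.22 with an adjusted p of 0.0359, and without KO replicate 1, at -0.26 with 0.0242. ATP5G3 had 620 and 992 counts in WT and 1043 and 866 in KO and stood at -0.0012 ± 0.09. Of the counts of the 3 genes, ATP5G1 held 17.8% and 20.5% in WT and 14.1% and 17.5% in KO, ranges that nearly touch, while ATP5G3 held 20.1% and 22.1% in WT and 24.3% and 23.7% in KO. Together they summed to 402 and 408 CPM in the WT libraries and to 370 and 343 CPM in the KO libraries. The sum of the F1 genes moved in the other direction, and the contrast was not tested.

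Among the small membrane subunits, ATP5L and ATP5I moved in opposite directions. They encode subunits g and e, which lie side by side in the membrane and help ATP synthases to dimerize. ATP5L (chr11:118401346-118433278, plus strand) had 1873 and 2551 counts in WT and 3726 and 3515 in KO, and rose from 238 ± 8.58 to 326 ± 5.80 CPM, by 36.9% of the WT level. Its log2 fold change of 0.45 ± 0.06 was the highest of the 37 genes, with an adjusted p of 8.02e-06. ATP5I (chr4:672436-674330, minus strand) had 652 and 944 counts in WT and 737 and 714 in KO. It fell from 85.4 ± 0.61 to 65.3 ± 2.39 CPM, a log2 fold change of -0.39 ± 0.09 with an adjusted p of 0.00215 in edgeR's test. The ratio of ATP5L to ATP5I counts, which needs no scaling between libraries, was 2.87 and 2.70 in WT and 5.06 and 4.92 in KO. With 2 libraries against 2 the smallest p of an exact permutation test is 0.333, so the ratio is given as a description.

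The peripheral stalk keeps the head from turning with the rotor. Of its 4 listed genes, 3 were analysed here and none of these passed. ATP5F1, ATP5H and ATP5J stood at 0.09, 0.19 and -0.16 (edgeR, adjusted p 0.453, 0.124 and 0.108). ATP5J, the most abundant gene of complex V per kb of transcript and behind ATP5L per kb of coding length, had 1917 and 2465 counts in WT and 2352 and 2359 in KO, with KO below WT. Its start region lies head to head with that of GABPA, and the spans of these genes overlap over 1104 bases on opposite strands. GABPA had 232 and 329 counts in WT and 484 and 421 in KO and rose by 0.44 on the log2 scale with an adjusted p of 0.0115. Whether the counting used strand is not stated, so reads from the shared stretch cannot be told apart. In all, 13 of the 37 genes overlap the span of another protein-coding gene of GENCODE 44. The 5 called among them were COX4I1, COX6A1, ATP5E, ATP5I and ATP5L. Pseudogenes of any type are named after 28 of the 37 genes, 124 in total with 17 for COX6C. Which reads were given to such copies is not stated.

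**Figure D3:**
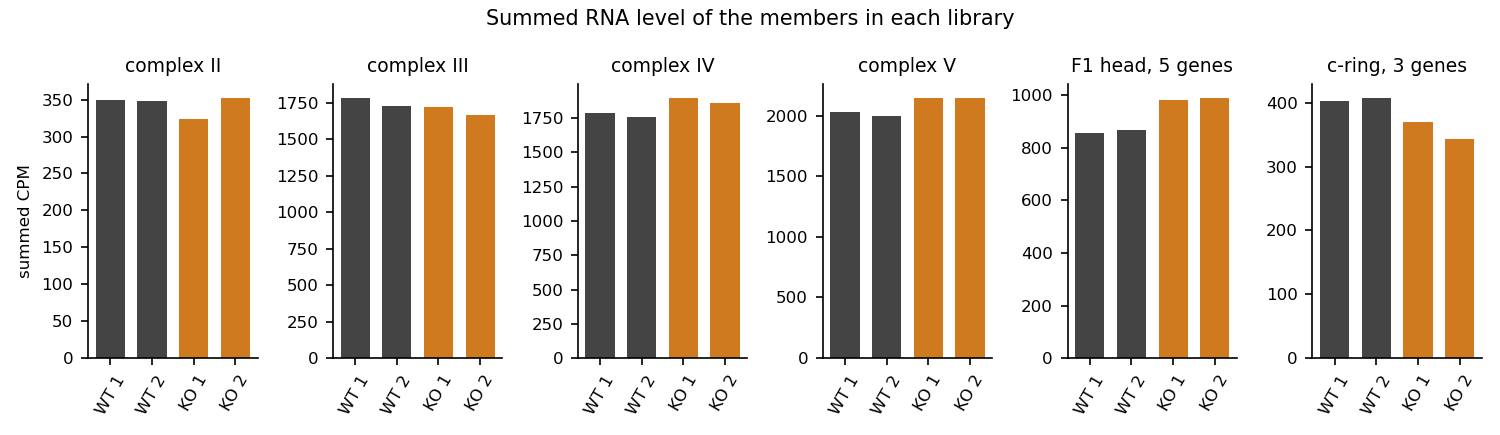
Bars, from 0, give the summed CPM in each library (WT dark, KO orange). They cover each complex and, within complex V, the F1 genes (titled F1 head, 5 genes) and the c-ring genes. Sums of complex IV, complex V and the F1 genes were higher in both KO libraries than in both WT libraries. Sums of complex III and the c-ring genes were lower, those of complex III with TMM scaling but overlapping with library size alone. Those of complex II overlapped.

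Summed over the complex, complex IV had 1787 and 1760 CPM in WT and 1900 and 1861 CPM in KO, and complex V 2029 and 1995 CPM in WT and 2144 and 2151 CPM in KO. Complex III had 1788 and 1732 CPM in WT and 1724 and 1668 CPM in KO, and with library size alone as the scaling its ranges overlapped, at 1742 and 1677 against 1791 and 1702. The 37 genes took 0.580% and 0.565% of all counts in WT and 0.633% and 0.616% in KO, and in CPM, which takes the composition of the libraries into account, 5953 and 5835 against 6092 and 6033. The means were 5894 ± 83.7 CPM in WT and 6062 ± 42.4 CPM in KO (SD, n = 2 each), too few libraries for an exact test to pass.

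The levels differed far more between genes than between genotypes. In WT, CPM per kb of the canonical GENCODE 44 transcript ran from 6.19 ± 0.55 for UQCRFS1 to 942 ± 24.6 for UQCRH (SD, n = 2). COX6A1 followed with 738 ± 2.22, then COX4I1 with 478 ± 18.7, ATP5J with 450 ± 34.5 and COX8A with 419 ± 28.8 CPM per kb. From COX4I1 to COX8A the SDs of neighbours overlapped, so that their order is not settled. In KO the same scale gave 847 ± 48.3 for COX6A1 and 510 ± 27.7 for COX8A, above COX4I1 at 415 ± 24.8 CPM per kb. The order depends on the transcript chosen, since the canonical transcripts of UQCRB (8459 bases), ATP5A1 (5761) and ATP5E (3610) are long, and per kb of coding length UQCRB ranked 3, behind UQCRH and COX6A1, where it ranked 29 per kb of transcript. The 3 isoform genes of the c-ring stood at 383 ± 17.5 (ATP5G2), 120 ± 13.2 (ATP5G1) and 33.0 ± 2.57 (ATP5G3) CPM per kb of transcript in WT. All members of complex II stayed between 31.2 and 64.9 CPM per kb of transcript in WT.

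The tissue isoforms of complex IV were nearly absent. COX4I2 and COX8C were listed at 0 in all 4 libraries. COX6A2 had 1 count in all, COX7B2 at most 4 counts and COX7A1 at most 4 counts in a library, near or under the 3 counts taken as the floor. COX6B2, the testis isoform, had 8 and 8 counts in WT and 4 and 5 in KO, which is 1% and 0.644% of the counts of COX6B1 and COX6B2 in WT and 0.292% and 0.410% in KO. None of these genes passed the filter on low counts, so the genotypes were not compared.

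Other genes of the pathway were taken from lists of 106 symbols, of which 94 were tested, and 14 were higher and 10 lower in KO with a median log2 fold change of 0.04. Without KO replicate 1 the counts were 6 and 6. With all libraries the test called 25.5% of the 94 genes, against 20.9% of all genes tested. Among genes at or above the mean level of the least abundant respiratory gene it called 26.7%. Of 35 nuclear subunits of complex I, 7 were higher and 3 lower (28.6% in all), with a median of 0.05. The largest changes there were NDUFA9 at 0.39, NDUFA1 at -0.33, NDUFB4 at 0.32 and NDUFA5 at 0.30. Of 39 assembly factors of complexes II to V, 4 were higher and 3 lower, 17.9% of them against 20.9% of all genes tested. SDHAF2, which helps attach flavin to SDHA, rose by 0.44, and COX14 and LRPPRC, which act on the mitochondrially made COX1 and on mitochondrial mRNA, rose by 0.47 and 0.33. TTC19, which acts in the turnover of the Rieske protein, rose by 0.33. The factors of complex IV that fell were COA4 and PET100, both at -0.34, and COA3 at -0.28. The subunits encoded in mitochondrial DNA were not analysed here.

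Of 13 regulators of respiratory genes, 2 were higher and 3 lower. That is 38.5% of them, against 20.9% of all genes tested and 26.7% of the more abundant genes defined above. NRF1 had 461 and 679 counts in WT and 885 and 797 in KO and rose by 0.31 on the log2 scale (edgeR, adjusted p 0.0152), and GABPA rose as given with ATP5J. POLRMT, the mitochondrial RNA polymerase, had 567 and 893 counts in WT and 592 and 511 in KO and fell by 0.65 on the log2 scale with an adjusted p of 2.26e-05. PPRC1 and PPARGC1B, coactivators of the PGC-1 family, fell by 0.47 and 0.27 on the log2 scale. Of 7 tested genes among the other subunits, C14orf2, a small subunit of complex V, had 1203 and 1746 counts in WT and 2471 and 1973 in KO and rose by 0.34, and UQCRHL fell. The inhibitor gene ATPIF1 stood at -0.11 and cytochrome c (CYCS) at 0.01, and neither passed.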

How the data were processed

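RNA from 2 WT and 2 THUMPD1 KO libraries was compared, with groups taken from the genotype in the sample labels. The authors deposited counts, whole numbers per gene symbol that are not normalized. The submitters' processing notes name hg19, while the RNA-seq methods name STAR and RSEM on GRCh38, and which pipeline and strand setting made the counts is not given in the sources used here. The methods give more samples per genotype than the 2 analysed here. The authors' own table of fold changes and p-values of KO against WT was not used.

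Counts were tested in edgeR 4.0.16 (R 4.3.3, TMM, glmQLFit and glmQLFTest) for 13128 genes that reached 1 CPM in 2 or more libraries. The p-values were adjusted over all of them by the Benjamini-Hochberg method, with a threshold of 0.05, after a check on simulated counts. CPM used TMM-scaled library sizes, and floors cover counting error only. Genes were placed by GENCODE 44 on GRCh38, 24 respiratory genes by symbol and 13 by synonym. Alternatives were other scalings, DESeq2 1.42.0, limma-voom (limma 3.58.1), other filters, the replicate number as a block, leaving out each library, and leaving out chromosomes 16 and 22. Tables and figures were made in Python 3.11.15 with pandas 2.3.3 and matplotlib 3.10.9.

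The genes and lists were chosen with earlier results of these data known. A gene was given with its counts where it passed the test, lay on chromosome 16 or 22, or had the highest or lowest fold change or the highest level per length of its complex. The c-ring genes were always given. From each other list at most the 4 largest changes that passed were named. ATP5B, LHX1, COA3 and PPARGC1B were named beyond this rule after their values were seen. ATPIF1, CYCS, COX17, ATP5J2-PTCD1, the tissue isoforms of complex IV and markers of other cell types were also named, though none passed.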

Additional observations from a re-analysis of the deposited data

How the results depend on the processing

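Of the 13 respiratory genes called, UQCRC2, UQCR10, COX7A2L, ATP5C1, ATP5G1, ATP5I and ATP5L passed under all 8 alternatives with every library and in all 4 fits without 1 library, and the other 6 (COX4I1, COX5A, COX6A1, COX8A, ATP5A1 and ATP5E) did not. The replicate numbers do not pair the libraries (correlation of the deviations 0.024), and with the replicate block the test called 9 respiratory genes higher and 7 lower. In fits without 1 library the lone library of a genotype is assumed to vary like the others. These fits called 1617 to 2599 genes in all, 3 to 7 respiratory genes higher and 4 to 8 lower, and of the other pathway lists 6 to 14 higher and 6 to 10 lower. Their median log2 fold changes ran from 0.022 to 0.050 over the respiratory genes, from -0.033 to 0.055 for complex II, from -0.13 to -0.0011 for complex III, from 0.082 to 0.17 for complex IV and from 0.12 to 0.15 for complex V.

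DESeq2 called 1755 genes, 5 respiratory genes higher, and 6 higher and 5 lower in the other pathway lists. Library size alone gave 23 higher and 5 lower in those lists, and medians of 0.12 over the respiratory genes and 0.11, 0.042, 0.19 and 0.17 for complexes II to V. The upper quartile gave medians of 0.063 and, for complex IV, 0.13, and limma-voom gave 0.089, with 0.15 for complex IV and 0.14 for complex V. Requiring 10 counts in every library gave 0.044. Without chromosomes 16 and 22, 2 respiratory genes were lower and the median was 0.064.

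Among changes that did not round to 0.00, the sign turned in 8 genes, none of which passed with all libraries. With library size alone SDHB stood at 0.066, UQCRB at 0.042, UQCRC1 at 0.0078 and COX7A2 at 0.072, with the upper quartile SDHB at 0.0062 and COX7A2 at 0.013, and with limma-voom COX7A2 at 0.0087. Without 1 library, SDHA ran from -0.30 to 0.0051, SDHB from -0.088 to 0.062, UQCRB from -0.14 to 0.050, UQCRFS1 from -0.12 to 0.23, COX6C from -0.0099 to 0.085, COX7A2 from -0.067 to 0.048 and ATP5D from -0.078 to 0.28. The cause was not tested.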

Other observations

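COX17, the copper chaperone of complex IV, was listed at 0 in all 4 libraries. The read-through gene ATP5J2-PTCD1, which takes in the ATP5J2 gene, had 4639 and 6365 counts in WT and 6946 and 6185 in KO, a log2 fold change of -0.0037. These counts cannot be given to ATP5J2 or PTCD1. Leucine, one of the amino acids carried by the tRNAs that THUMPD1 acts on, took a median of 9.33% of the codons of the 37 respiratory genes, against 9.74% over 12927 tested genes with a coding sequence. The leucine codons UUG, CUU, CUA and UUA took a median of 50% of the leucine codons of the respiratory genes (quartiles 29.8% and 59.3%), against 40.8% over the tested genes (quartiles 22.7% and 61.3%).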
